A study of Drosophila montana and Drosophila virilis with 10 samples.

Results

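Of 15342 gene identifiers counted in whole flies of 2 related species, 39 had more reads after cold acclimation in Drosophila virilis while their level in D. montana stayed near its control level. They were chosen by the counts themselves, in 4 conditions on reads scaled to 1000000 gene reads per library (CPM). The mean over the libraries had to be at least 10 CPM in each species, which 7042 identifiers reached. Both acclimated D. virilis pools had to lie above both control pools, and the D. virilis ratio of acclimated to control means, with 1 CPM added to each, had to be 2 or more. The same ratio in D. montana had to lie between 0.833 and 1.2. Because these conditions used the acclimated and the control libraries of both species, the size of the members' changes is described here and tests on it carry no independent support.

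The samples were pools of whole flies, kept cold acclimated or at ambient temperature before RNA extraction. D. virilis strain TOY3F9, from Toyama in Japan, gave 2 acclimated pools (stated ages 29 and 30 days after eclosion) and 2 control pools (27 and 28 days), of 20 flies each. D. montana strain 175OJ8, from Oulanka in Finland, gave 3 acclimated pools (24, 25 and 26 days) and 3 control pools (21, 22 and 23 days), of 10 flies each. Each species is thus 1 strain, the acclimated pools are older than the controls by their labels, and acclimation cannot be told apart from stated age. The stated ages run without a gap or repeat from 21 to 30 days in the order of the sample records, so whether they are true ages is in doubt. The acclimation temperature and duration are not stated in the labels. Nor do they say whether each pool had a culture of its own, so a p-value here reflects how far pools differed, which may be technical.

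Cold acclimation is the gain in cold tolerance that insects show after a spell at low but harmless temperature. In flies it is known to involve membrane lipids, ion and water balance, sugars and polyols that protect cells, and chaperone proteins. D. montana is a northern species that overwinters as an adult in reproductive diapause, and the comparison with D. virilis asks which transcripts respond in one species and which in both. The files name genes by FlyBase identifier only, and 0 of the 15342 identifiers were found in the gene table used here, so no role is given to any member. No sequence or position of a member is shown.

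Reads on genes numbered 987461 and 1316804 in the acclimated D. virilis pools and 650517 and 931704 in the D. virilis controls, against 1518027 to 2235850 in D. montana. A single read was worth 0.759 to 1.54 CPM in D. virilis libraries and 0.447 to 0.659 CPM in those of D. montana. Reads with several alignments were 83.0% ± 0.44 (SD, n = 2) of all reads in acclimated and 76.6% ± 1.4 (SD, n = 2) in control D. virilis. Depth and this share both moved with acclimation in D. virilis, and their part in the results was not tested. CPM from library totals placed the median D. virilis gene of the 7042 at a log2 ratio of −0.13, so a change in CPM is measured against that shift. After trimmed-mean (TMM) scaling the same median was −0.0069.

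The D. virilis increase was clearest for FBgn0208655, which had the highest ratio of the 39, 6.02. It had 190.4 and 220.2 CPM in the acclimated D. virilis pools, against 46.1 and 20.4 CPM in the controls. In D. montana it had 213, 233 and 162 CPM in acclimated pools and 162, 192 and 228 CPM in controls. The acclimated D. virilis pools therefore lay within the D. montana range, and the D. virilis controls stood alone below it. In the fit across all genes it rose in D. virilis by 2.80 on the log2 scale (SE 0.33, edgeR adjusted p = 0.023). The change in D. virilis exceeded that in D. montana by 2.76 log2 units (SE 0.38, edgeR adjusted p = 0.0024). That fit used a single spread per gene for both species, so its p is not like for like with that of D. virilis alone. Without control pool 2, the lower of the D. virilis controls, the D. virilis log2 fold change was 2.36 (edgeR adjusted p = 0.061). In whole-fly RNA, more cells that express a gene and more RNA per cell cannot be told apart.

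FBgn0198000 showed the other arrangement, with a rise in D. virilis away from a level that the remaining groups shared. It had 108 and 86.6 CPM in acclimated D. virilis, against 16.9 and 26.8 CPM in the controls. D. montana pools held 17.7, 27.7 and 26.8 CPM after acclimation and 20.2, 27.0 and 24.7 CPM without it. Only the acclimated D. virilis pools stood apart for this gene, at more than 3 times the highest of the other 8 libraries. It rose in D. virilis by 2.23 on the log2 scale (SE 0.35, edgeR adjusted p = 0.048), and this exceeded the D. montana change by 2.22 (SE 0.41, edgeR adjusted p = 0.029). The D. virilis call was lost with DESeq2 size factors (0.059), upper quartile scaling (edgeR adjusted p = 0.0501), library sizes without the 20 most abundant genes (0.058), limma-voom (0.065), and without control pool 1 (0.140) or control pool 2 (0.108). The difference from D. montana missed the threshold in 8 of 18 alternatives, among them limma-voom (adjusted p = 0.069).

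FBgn0198785 was the only other member past the threshold in D. virilis, and its controls were the tightest of the reported members. It had 574 and 473 CPM in the acclimated pools, against 211 and 208 CPM in the controls. In D. montana it had 191.5, 194.5 and 156 CPM after acclimation, against 160, 153 and 163 CPM in controls. The rise in D. virilis was 1.44 on the log2 scale (SE 0.21, edgeR adjusted p = 0.036). The difference from the D. montana change was 1.27 (SE 0.26, edgeR adjusted p = 0.055) and did not pass. Among the alternatives that kept every library, it passed with DESeq2 (adjusted p = 0.0040) and with no filter (edgeR adjusted p = 0.014), and missed in the others. Without D. virilis control pool 1 the D. virilis adjusted p was 0.153 and without control pool 2 it was 0.159 (edgeR).

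**Figure D1:**
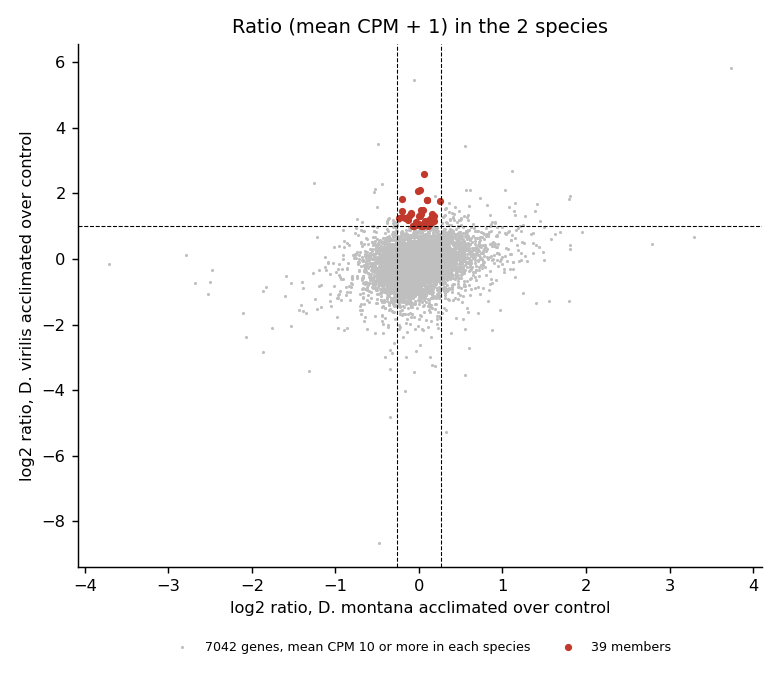
Log2 ratio of acclimated to control mean CPM (1 CPM added to each) in D. montana (x axis) and D. virilis (y axis) for 7042 genes, with the 39 members in red. Dashed lines mark the D. virilis ratio of 2 and the D. montana ratios of 0.833 and 1.2; members reach a D. virilis ratio of 6.02, and grey points inside the same lines had overlapping D. virilis pools.

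Over the whole list, 3 of the 39 members were called higher in acclimated D. virilis, where 0.182% of 7692 tested genes were (edgeR's quasi-likelihood test, Benjamini-Hochberg adjusted p under 0.05). The unadjusted p was under 0.05 for 33 members, against 7.18% of all tested genes. These counts follow from the choice of members by the same contrast. Without D. virilis control pool 1 the number of members called was 1, when 7 of 8056 tested genes were called higher, and without control pool 2 it was 0, when 1 of 8162 was. Without acclimated pool 2 it was 8, when 138 of 8135 genes were called higher, and with no filter on low counts it was 16, when 254 of 13038 were. The median log2 fold change of the members was 1.46, against −0.0056 for all tested genes.

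In D. montana 0 of the 39 were called in either direction, where 1.67% of 9315 tested genes were called by edgeR. The unadjusted p was under 0.05 for 0 members, against 13.4% of all tested genes, and DESeq2 and limma-voom also called 0. The band on the D. montana ratio keeps large D. montana changes out of the list, so nothing is read from these counts. The median D. montana log2 fold change was 0.055, against −0.012 for all tested genes. By the same choice, the 95% interval of the D. montana change stayed below 1 log2 unit for all 39, the highest upper bound being 0.84. These intervals were narrower than those in D. virilis, whose median half-width was 1.18 log2 units, against 0.48 in D. montana.

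Acclimated and control D. montana pools did not overlap for 1 member, where 19.4% of the 7042 genes had no overlap, and this low count also follows from the band on the D. montana ratio. That member, singled out after its values were seen, was FBgn0207691, with 18.7 ± 0.75 CPM after acclimation and 21.7 ± 1.2 CPM in controls (SD, n = 3 each). In D. virilis it had 44.6 and 19.0 CPM in the acclimated pools, against 15.4 and 9.66 CPM in the controls.

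The change in D. virilis was called more positive than that in D. montana for 2 of the 39 members, FBgn0208655 and FBgn0198000. The same call was made for 0.0815% of 9811 tested genes. The unadjusted p was under 0.05 for 36 members, against 5.39% of all genes, a count that again follows from the choice. The fit of the difference used a single spread per gene for both species, so D. montana pools also set the error placed on D. virilis. The members' median SE was 0.505 for the difference and 0.521 for the D. virilis change fitted alone. The 95% interval of the D. virilis change lay wholly above that of the D. montana change for 13 members. This count too follows from the choice, and the share over all genes was not computed, so nothing is read from it. This test uses the libraries and the contrast that chose the members, so a rise in D. virilis only is a description by the rule for all 39, and the 2 calls add no independent support. The number called was 9 without D. virilis acclimated pool 2, when 71 of 10596 genes were called in this direction, and 4 without D. virilis acclimated pool 1, when 15 of 10561 were. It was 1 without D. virilis control pool 1, without D. montana control pool 2 or 3, or without any 1 of the D. montana acclimated pools, settings in which 4 to 8 genes were called. With no filter it was 6, when 36 of 14741 genes were called in this direction. Of the 9811 genes DESeq2 called 25 in this direction, among them 4 members, and limma-voom called 3, among them 1 member. All the counts over genes given here are of calls in this direction only.

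**Figure D2:**
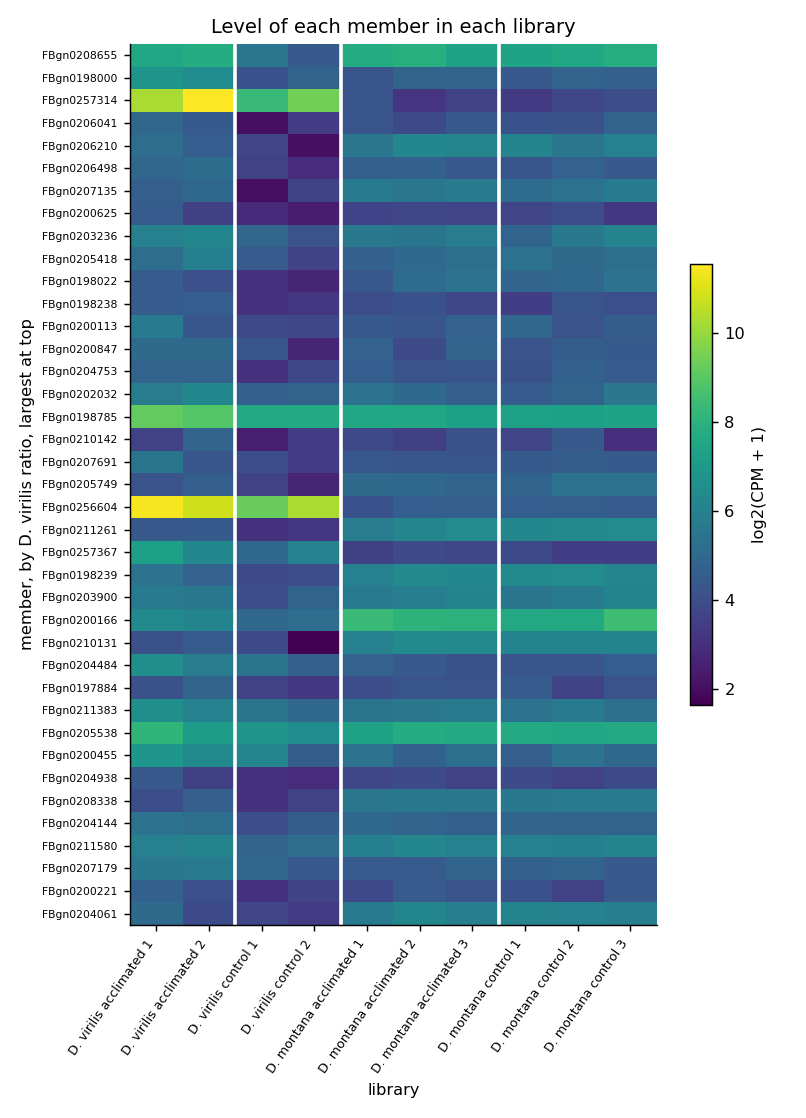
Level of the 39 members, as log2(CPM + 1), in each of the 10 libraries (columns), rows ordered by D. virilis ratio with the largest, 6.02, at the top. White lines part the groups; FBgn0257314 and FBgn0256604 are the brightest rows in D. virilis and among the darker rows in D. montana.

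Of the 6 members with the largest ratios, FBgn0206041, FBgn0206210 and FBgn0206498 rested on few reads in the D. virilis controls. FBgn0206041 had 29.4 and 21.3 CPM in acclimated D. virilis, against 3.07 and 9.66 CPM on 2 and 9 reads in controls. In D. montana it had 18.3, 13.9 and 20.1 CPM after acclimation and 16.7, 16.5 and 27.2 CPM in controls. FBgn0206210 had 35.4 and 23.5 CPM in acclimated D. virilis, against 12.3 and 3.22 CPM on 8 and 3 reads in controls. Its D. montana pools, at 45.9, 75.4 and 70.2 CPM acclimated and 69.3, 45.5 and 64.0 CPM control, all lay above every D. virilis pool. FBgn0206498 had 29.4 and 34.9 CPM in acclimated D. virilis, against 10.8 and 6.44 CPM on 7 and 6 reads in controls, with 24.9, 25.5 and 19.2 CPM in acclimated and 17.9, 26.4 and 20.6 CPM in control D. montana. Their D. virilis ratios of 3.57, 3.48 and 3.45 did not pass the test (edgeR adjusted p = 0.245, 0.220 and 0.138).

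Low counts were common in the D. virilis controls of the members. At least 1 control pool held 10 reads or fewer for 23 of the 39, and 16 had more than 10 reads in every D. virilis library. The rule favours genes with low D. virilis controls, and the share over all genes was not computed, so these counts only describe the list. The median member had 41 and 43 reads in the acclimated pools, against 10 and 12 reads in the control pools, and 42 to 62 reads in a D. montana pool. The coefficient of variation between the D. virilis pools had a median of 24.1% over the members in the acclimated group and 32.1% in the control group, where counting error alone at the members' median depth comes to 16.2% and 30.9%. For all 7042 genes the medians were 18.2% and 14.7%. A spread from 2 pools tends to fall below the true one, so it is not like for like with the counting error. In D. montana the members' medians were 15.0% among acclimated and 19.9% among control pools, against 13.5% and 15.1% for all 7042 genes.

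**Figure D3:**
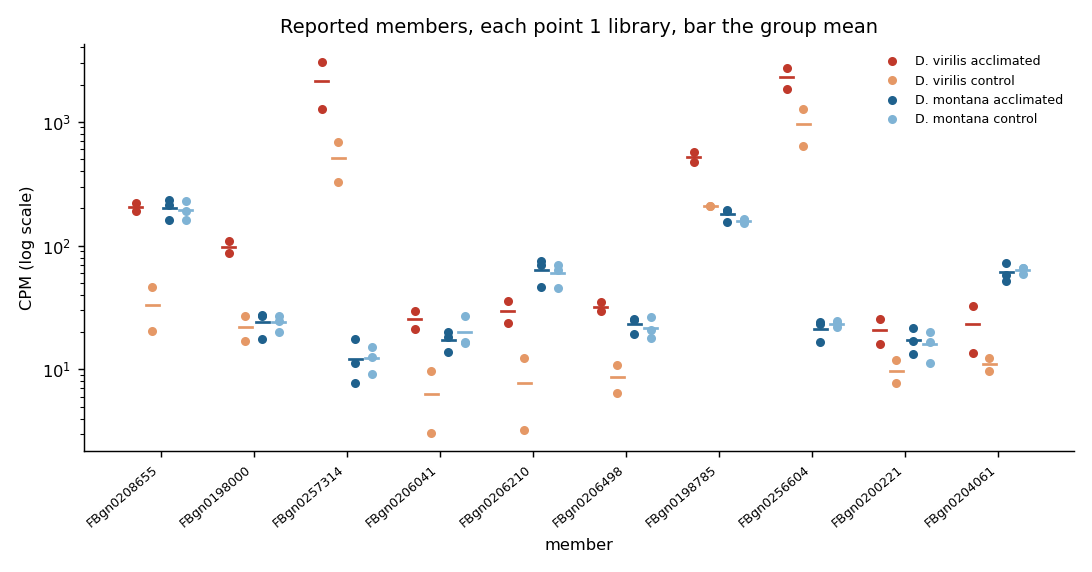
CPM on a log axis of the 10 members named by a fixed rule, each point 1 library and each bar a group mean (2 pools per D. virilis group, 3 per D. montana group). Both acclimated D. virilis points lie above both control points for each gene, from 190.4 and 220.2 against 46.1 and 20.4 CPM in FBgn0208655 to 32.4 and 13.7 against 12.3 and 9.66 CPM in FBgn0204061.

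Not every member was raised alike in the 2 acclimated D. virilis pools, and no difference between the pools was tested. Both pools were at 2 or more times the control mean for 19 members, pool 1 alone for 14 and pool 2 alone for 6 (1 CPM added throughout). Pool 1 exceeded pool 2 for 22 members, against 3186 of the 7042 genes. In the controls, pool 1 exceeded pool 2 for 21 members, against 4321 of the 7042 genes. The all-gene counts depended on the scaling. With TMM scaling they were 3552 in the acclimated and 3492 in the control pools, beside 24 and 19 members. The lower acclimated pool was at 1.5 or more times the higher control pool for 26 members and at 2 or more times for 12. The rule favours such gaps, and the share over all genes was not computed, so these counts only describe the list. The smallest such gap was that of FBgn0204061, at 1.11. Both acclimated pools lay above both controls for 15.3% of the 7042 genes, a condition every member meets by the rule.

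**Figure D4:**
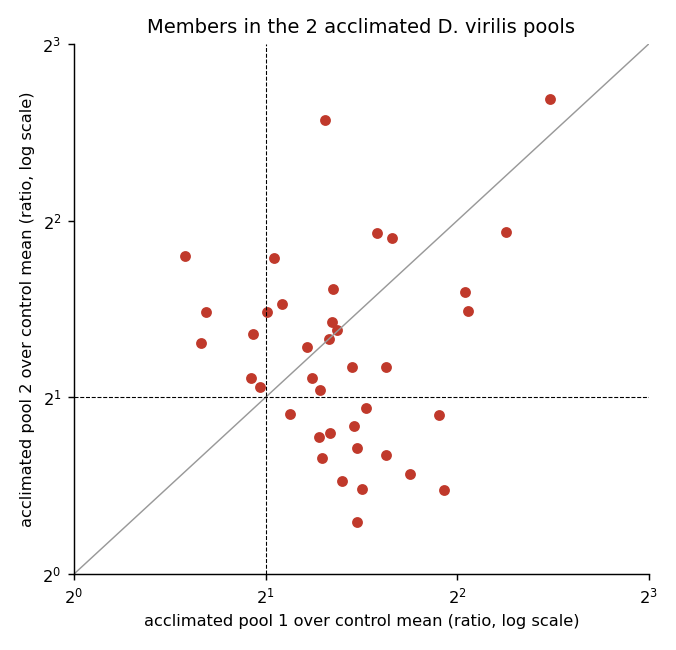
Ratio of acclimated D. virilis pool 1 (x axis) and pool 2 (y axis) to the mean of the control pools for the 39 members, 1 CPM added, both axes on a log scale. Dashed lines mark a ratio of 2 and the grey line equal values; 19 members lie beyond 2 in both pools, 14 in pool 1 alone and 6 in pool 2 alone.

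At the lower end of the list, FBgn0200221 and FBgn0204061 had ratios of 2.01. FBgn0200221 had 25.3 and 15.9 CPM in acclimated D. virilis, against 7.69 and 11.8 CPM in controls, and 13.3, 21.6 and 17.0 CPM in acclimated against 16.7, 11.2 and 20.1 CPM in control D. montana. FBgn0204061 had 32.4 and 13.7 CPM in acclimated D. virilis, against 12.3 and 9.66 CPM in controls, and 51.5, 72.6 and 57.7 CPM in acclimated against 66.4, 65.9 and 58.4 CPM in control D. montana. The nearest genes outside, which met every other condition, had ratios of 1.98 and 1.97. Their means were 24.2 and 79.7 CPM in acclimated D. virilis and 11.7 and 40.1 CPM in controls. The D. montana ratio of the members ran from 0.846 to 1.19, and the nearest genes outside that band had 0.8329, under the limit of 0.8333, and 1.21. The lowest mean of a member in either species was 10.8 CPM, and 102 genes were kept out by the level alone, the highest of them at 9.73 CPM. Of the 39 ratios, 7 were 3 or more, 9 lay from 2.5 to 3 and 23 lay below 2.5, with a median of 2.40. The 25 members not given one by one had ratios of 2.02 to 3.40, with means of 15.4 to 208 CPM in acclimated and 5.22 to 98.0 CPM in control D. virilis.

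The species differed widely in the level of some members, and these levels were not tested. Species cannot be told apart from strain, pool size, stated age, instrument or match to the annotation. The D. montana mean lay between the D. virilis acclimated and control means for 21 members, above the acclimated mean for 11 and below the control mean for 7. The median member had 34.1 CPM in acclimated and 13.4 CPM in control D. virilis, against 30.5 CPM in acclimated and 32.0 CPM in control D. montana. The D. montana mean was 1.99 times the D. virilis control mean in the median member, against 1.03 times over the expressed genes. The choice of members favours genes with low D. virilis controls, so this ratio is not independent of the rule. In the 11 members with the higher D. montana level, D. montana held 1.14 to 3.71 times the acclimated D. virilis mean.

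FBgn0257314 and FBgn0256604 had the highest CPM of the list in every D. virilis pool and were low in D. montana. FBgn0257314 had 1259 and 3015 CPM in acclimated and 324 and 691 CPM in control D. virilis, whereas D. montana held 17.7, 7.76 and 11.2 CPM after acclimation and 9.24, 12.5 and 15.1 CPM in controls. FBgn0256604 had 2739 and 1828 CPM in acclimated and 633 and 1271 CPM in control D. virilis, against 16.6, 23.3 and 24.2 CPM in acclimated and 23.7, 24.4 and 22.2 CPM in control D. montana. The D. virilis control means were 41.4 and 42.6 times the D. montana means. Neither D. virilis change passed the test, at 2.16 log2 units for FBgn0257314 (SE 0.44, edgeR adjusted p = 0.086) and 1.37 for FBgn0256604 (SE 0.35, edgeR adjusted p = 0.138). These calls depended on the setting. FBgn0257314 passed with no filter (edgeR adjusted p = 4.0e-24) and with a minimum mean of 10 CPM in each species (edgeR adjusted p = 0.036). It also passed with the replicate number as a block (edgeR adjusted p = 0.0021). It missed with DESeq2 (adjusted p = 0.140), limma-voom (adjusted p = 0.074) and the other scalings (edgeR adjusted p = 0.089 to 0.115). Without acclimated pool 1 its log2 fold change was 2.64. FBgn0256604 passed with no filter (edgeR adjusted p = 1.0e-10), and without acclimated pool 2 its log2 fold change was 1.66. It missed with DESeq2 (adjusted p = 0.309) and limma-voom (adjusted p = 0.110). With edgeR it missed with the 10 CPM minimum (adjusted p = 0.073), the block (0.134) and the other scalings (0.135 to 0.175). With no filter 254 of 13038 genes were called higher in D. virilis, against 14 of 7692 in the main fit. In both genes the higher control pool was at more than 2 times the lower. FBgn0257367, singled out because its number lies in the same block, had 151 and 77.5 CPM in acclimated and 30.7 and 65.5 CPM in control D. virilis, against 10.5 to 14.4 CPM in acclimated and 9.88 to 13.9 CPM in control D. montana. CPM is not corrected for gene length, so these values do not rank transcripts against those of other genes.

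**Figure D5:**
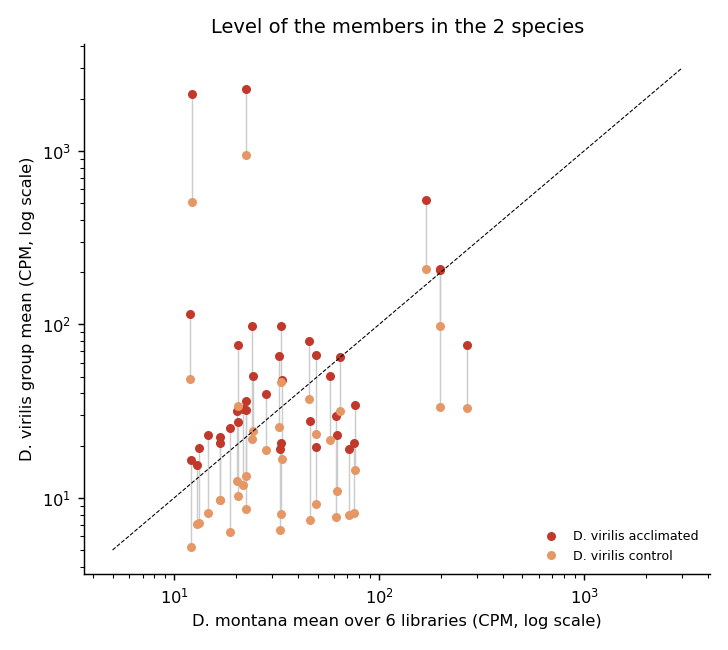
D. virilis acclimated (red) and control (orange) mean CPM of each member against its D. montana mean over 6 libraries, log axes, with a grey line joining the values of 1 member and a dashed line at equal levels. The D. montana mean lies between the D. virilis means for 21 members, above both for 11 and below both for 7; FBgn0257314 and FBgn0256604 stand far above the dashed line.

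Summed over the 39 members, D. virilis pools held 0.660% and 0.700% of their gene reads after acclimation, against 0.192% and 0.282% in controls, a ratio of 2.87. Without the 3 members numbered FBgn0256 or FBgn0257, a choice made after seeing the data, the sums were 0.246% and 0.208% against 0.0936% and 0.0795%, a ratio of 2.62. In D. montana the 39 members held 0.200%, 0.211% and 0.202% after acclimation, against 0.183%, 0.192% and 0.219% in controls, a ratio of 1.03. The D. virilis groups were apart by the choice of members, and the D. montana groups overlapped.

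The members were 39 of the 114 genes that met the D. virilis conditions, or 34.2%. Of the other 75, 57 had a D. montana ratio above 1.2 and 18 one below 0.833. Their D. virilis ratios had medians of 2.50 and 2.25, close to the 2.40 of the members. The highest ratios were 57.1 among the 57 and 11.4 among the 18, against 6.02 among the members. Of the 57, 7 were called higher in D. virilis and 13 were called in D. montana. Of the 18, of which 17 were tested in D. virilis, 2 were called higher there and 0 were called in D. montana. Over all tested genes 0.182% were called higher in D. virilis and 1.67% were called in either direction in D. montana (edgeR). The classes were cut by these same contrasts, so nothing is read from the counts. In acclimated D. virilis the median was 34.1 CPM for the members, 60.0 CPM for the 57 and 50.7 CPM for the 18, and in control D. virilis it was 13.4, 21.6 and 17.5 CPM. These 3 classes share their D. virilis libraries and no difference between them was tested.

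Membership itself depended on single D. virilis pools. The rule, applied with each of the 10 libraries left out in turn, was met every time by 4 of the 39, FBgn0208655, FBgn0198000, FBgn0206498 and FBgn0198238. The last, singled out after its values were seen, had 22.3 and 23.5 CPM in acclimated D. virilis, against 7.69 and 8.59 CPM in controls, and 14.9, 16.6 and 12.5 CPM in acclimated against 9.81, 17.8 and 15.6 CPM in control D. montana. Without D. virilis acclimated pool 1, 24 of the 39 remained among 48 genes, and without acclimated pool 2, 33 among 89. Without control pool 1, 31 remained among 107 genes, and without control pool 2, 29 among 70. Leaving out any 1 D. montana library kept 32 to 36 of the 39. With TMM scaling the rule gave 67 genes, 38 of them among the 39.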

How the data were processed

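Whole-fly mRNA of 10 pools was read on SOLiD sequencers, and the instrument cannot be told apart from species. The authors deposited read counts per identifier, not normalised, and HTSeq is the counter named in the submitters' processing notes. How reads were aligned, to which build and annotation, and with which HTSeq mode is not given in the sources used here. The 5 counter lines closing each file, which name no gene, were left out (percentages of reads above are of all lines). Library totals gave CPM for the rule, the sums and the levels.

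Tests used edgeR 4.0.16 (quasi-likelihood F-test, limma 3.58.1, R 4.3.3) with TMM scaling, the default filter by group (minimum count 10, minimum total 15) and Benjamini-Hochberg adjustment over all tested genes. Each species was fitted alone, and the difference of changes in 1 fit of all 10 libraries, with a single spread per gene for both species. Intervals and standard errors came from the unshrunken log2 fold change and F. DESeq2 1.42.0 and limma-voom were alternatives, and leaving out 1 D. virilis pool leaves a lone pool in its group, assumed to vary like the others. The scripts were tested on simulated counts.

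Members and lists were chosen with earlier results of these data known. Genes reported by name were the 6 members with the largest D. virilis ratio, those called in D. virilis or in the difference, the 3 with the highest acclimated D. virilis CPM and the 2 nearest the ratio of 2. Others are said to be singled out. Pathway and tissue lists could not be matched to identifiers and were not used.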

Additional observations from a re-analysis of the deposited data

Results flagged for a closer look

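The change with acclimation differed between D. virilis and D. montana for 2 members in the test of the difference itself. Of 9811 tested genes, 0.0815% were called more positive in D. virilis. FBgn0208655 differed by 2.76 log2 units (edgeR adjusted p = 0.0024) and FBgn0198000 by 2.22 log2 units (edgeR adjusted p = 0.029). Each was higher in 2 of 2 acclimated D. virilis pools, as the rule requires of every member. The first passed in all 18 alternatives (adjusted p up to 0.032), the second in 10 of 18 (adjusted p up to 0.116). Both were chosen as members by this contrast, so the flags repeat the choice.

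Outside the gene counts, reads with several alignments were 83.0% of all reads in acclimated D. virilis pools and 76.6% in the controls. With 2 pools in each group no test was made, and whether this bears on the members was not tested.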

How the results depend on the processing

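Against 39 members, the rule gave 67 genes with TMM scaling, 69 with DESeq2 size factors, 62 with a minimum mean of 5 CPM, 21 with 20 CPM, 137 with no minimum, 179 with a D. virilis ratio of 1.5, 7 with 3, and 85 with a D. montana band widened to 1.5. Leaving out 1 library gave 35 to 107. Calls in D. virilis, 3 with every library, were 16 with no filter and 0 to 8 without 1 library, when genes called higher numbered 14, 254 and 1 to 138 over all tested. Calls of the difference, 2 with every library, were 6 with no filter, 4 with DESeq2, 1 with limma-voom and 1 to 9 without 1 library, when calls in that direction over all tested genes numbered 8, 36, 25, 3 and 4 to 71. The causes were not tested. The D. montana count was 0 under each alternative. The sums, medians, pool orders and species levels moved by less than their spread, or by less than 1.5 times, in each alternative, and the D. montana median log2 fold change ran from −0.0030 to 0.143 without 1 library.

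Same-numbered acclimated and control pools deviated with r = −0.0043 in D. virilis and −0.302, −0.190 and −0.183 in D. montana. No positive relation was seen, but the 2 pools of a D. virilis group mirror each other. D. virilis thus gives a single value, too little to settle whether replicate numbers pair the pools. With the replicate number as a block, 4 members were called in D. virilis, 0 in D. montana and 1 in the difference. Over all tested genes 42, 155 and 17 were called in either direction, against 24, 156 and 22 without the block. Calls of higher genes alone were 24 in D. virilis and 7 in the difference, against 14 and 8 without the block. FBgn0257314 passed in D. virilis with the block (edgeR adjusted p = 0.0021).

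Depth was low on the D. virilis side: 23 members had a control pool of 10 reads or fewer, a count that the rule favours. In the controls, counting error at the members' median depth was 30.9% and their median spread was 32.1%. An SD from 2 pools tends to fall below the true spread, so these values are not like for like. The part of counting error in the spread was not tested.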

Other observations

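The identifiers numbered FBgn0256 and FBgn0257 form a block of 850 in the files, of which 33 reached a mean of 10 CPM in each species. Of the 7042 genes at that level, 27 had a D. virilis mean more than 10 times the D. montana mean, and 16 of the 27 were in this block, FBgn0257314 and FBgn0256604 among them. No annotation of the block was used here, and the difference between species was not tested.

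A single pair of members had consecutive identifier numbers, FBgn0198238 and FBgn0198239. FBgn0198239, singled out after its values were seen, had 41.5 and 26.6 CPM in acclimated and 13.8 and 15.0 CPM in control D. virilis, and 60.9, 79.2 and 77.4 CPM in acclimated and 82.0, 85.0 and 71.0 CPM in control D. montana. Whether the genes lie side by side is not known from the files.

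Turned round, the rule was met by 208 genes that were lower in both acclimated D. virilis pools, against the 39 that were higher. Both acclimated pools lay below both controls for 2183 of the 7042 genes in CPM from library totals and above them for 1079, and with TMM scaling the counts were 1626 and 1558.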
